A study of Mus musculus with 18 samples.

Results

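A set of 10 genes of the fast skeletal muscle fibre was followed through 18 bulk mammary tumours of mice. The 10 genes were Acta1, Ttn, Actn3, Myh4, Mylpf, Tnnt3, Tnni2, Tnnc2, Ckm and Pvalb. They were taken by gene symbol, and each was measured by 1 probe set that the platform annotation gave to that gene alone. They were 10 of 19938 genes with such a probe set. Values are log2 expression after RMA, so a difference of 1 is a 2-fold difference, and values of different genes are not set against each other because their probes differ.

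Every mouse carried the neu (ErbB2) transgene of the strain FVB/N-Tg(MMTVneu)202Mul/J, which the mouse mammary tumour virus promoter drives mainly in mammary epithelium. Of the arrays, 10 came from Snai2 KO mice, whose Snai2 deletion traces to the B6;129S1-Snai2tm2Grid/J line, and 8 came from Snai2 WT mice. Parity and metastasis split them into 6 groups. The Snai2 KO groups were parous mice with metastasis (3 arrays), parous mice without metastasis (3 arrays), a nulliparous mouse with metastasis (1 array) and nulliparous mice without metastasis (3 arrays). The Snai2 WT groups were parous mice with metastasis (4 arrays) and nulliparous mice with metastasis (4 arrays). The labels call the tissue a luminal ERBB2+ mammary tumour and number the mice as biological replicates. The sources used here give neither the age of the mice nor the way each tumour was dissected.

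The skeletal muscle fibre is a single cell packed with sarcomeres, in which thick filaments of myosin pull on thin filaments of actin. Calcium released from the sarcoplasmic reticulum binds troponin on the thin filament and frees the sites that myosin grips. Fast fibres use their own forms of myosin, troponin and actinin, together with creatine kinase for quick supply of ATP and parvalbumin for quick removal of calcium. Luminal mammary epithelium is not known for making these proteins. The mammary fat pads of the mouse lie under the skin, next to the thin muscle of the skin and to the muscle of the body wall.

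The labels were checked before the muscle genes were described. The mean of 10 luminal epithelial genes lay between 11.14 and 11.72 on all 18 arrays, and Erbb2 lay between 12.45 and 12.92. Snai2 lay between 6.28 and 6.79 on the KO arrays and between 6.68 and 7.09 on the WT arrays, so the genotypes overlapped. The sources used here do not place its probes relative to the deleted part. Replicates 2 and 3 of the KO parous mice with metastasis were nearly the same. Their log2 values differed with an SD of 0.102 over 10252 brighter genes (mean log2 8 or more), while the closest other pair among the 153 possible had 0.285. Their mean was used as 1 sample, which left 17 samples. Array medians lay between 7.60 and 7.67.

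The promoters of 4 of the genes are shown because these genes differed on 1 array that is described further on. Relative to their medians over the 17 samples, Acta1 was at 1.88 and Ttn at 2.15 there, Myh4 at 0.70 and Pvalb at −0.03. Each window is the 250 bases before the start of the gene in RefSeq on GRCm38.p6, read 5′ to 3′ on the strand of the gene. Capitals mark matches to a CArG box, to a MEF2 site and to TATAAA on either strand.
Acta1 (chr8:123894776-123895025, minus strand): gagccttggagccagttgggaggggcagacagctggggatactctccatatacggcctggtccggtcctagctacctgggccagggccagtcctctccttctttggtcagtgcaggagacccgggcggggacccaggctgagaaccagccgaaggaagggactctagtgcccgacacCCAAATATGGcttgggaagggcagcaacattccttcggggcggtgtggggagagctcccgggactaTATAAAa
Ttn (chr2:76982548-76982797, minus strand): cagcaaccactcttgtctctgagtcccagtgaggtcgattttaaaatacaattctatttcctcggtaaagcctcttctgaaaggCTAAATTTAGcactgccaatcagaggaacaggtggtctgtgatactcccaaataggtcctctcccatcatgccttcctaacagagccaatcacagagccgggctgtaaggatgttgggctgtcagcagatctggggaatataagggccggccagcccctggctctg
Myh4 (chr11:67237562-67237811, plus strand): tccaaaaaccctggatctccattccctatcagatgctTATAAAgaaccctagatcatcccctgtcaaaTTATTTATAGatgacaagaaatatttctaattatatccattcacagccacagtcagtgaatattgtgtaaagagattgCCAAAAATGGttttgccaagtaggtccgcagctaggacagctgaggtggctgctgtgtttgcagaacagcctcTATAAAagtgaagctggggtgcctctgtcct
Pvalb (chr15:78206401-78206650, minus strand): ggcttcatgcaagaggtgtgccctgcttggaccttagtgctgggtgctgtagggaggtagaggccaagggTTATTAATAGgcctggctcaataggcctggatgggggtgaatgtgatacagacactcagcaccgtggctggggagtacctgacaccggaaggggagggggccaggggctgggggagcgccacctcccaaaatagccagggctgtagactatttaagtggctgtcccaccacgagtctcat

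RefSeq windows were matched for 7 of the 10 genes, and those of Tnnt3, Tnni2 and Actn3 were not matched. The CArG box is the element bound by serum response factor, and it was matched in 2 of the 7 windows, those of Acta1 and Myh4, and in 1.47% of 32851 mouse promoters. The MEF2 site was matched in 3 of the 7, those of Ttn, Myh4 and Pvalb, and in 2.92% of all promoters. TATAAA was matched in 2 of the 7, Acta1 and Myh4, and in 12.4% of all promoters. The E-box CANNTG, the letters that MyoD family factors recognise, was matched in 6 of the 7 and in 66.2% of all promoters, so it is left in lower case. Motifs were searched on both strands, and a match is a description of the letters and not a bound site. The 10 genes lie on 6 chromosomes, with Ckm, Mylpf, Tnnt3 and Tnni2 on chromosome 7. Tnnt3 and Tnni2 have 2 genes between them, Lsp1 and Prr33.

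The 10 genes differed between tumours far more than most genes did, and they did so within groups as well as between them. One tumour, replicate 1 of the WT nulliparous mice with metastasis, held the highest value of every one of the 10 genes. There the 10 genes stood a median of 3.29 above their medians over the 17 samples, from 2.01 for the lowest to 4.29 for the highest. Across all 17 samples the span from lowest to highest was widest for Ttn at 4.80, a 27.9-fold difference, and narrowest for Mylpf at 2.33, a 5.03-fold difference. The median span over all genes was 0.61, and the 10 genes lay between the 96.3 and the 99.8 percentile of all genes by their span. Within groups, the pooled SD of the 10 genes was 0.59 to 1.41, against a median of 0.15 over all genes.

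**Figure D1:**
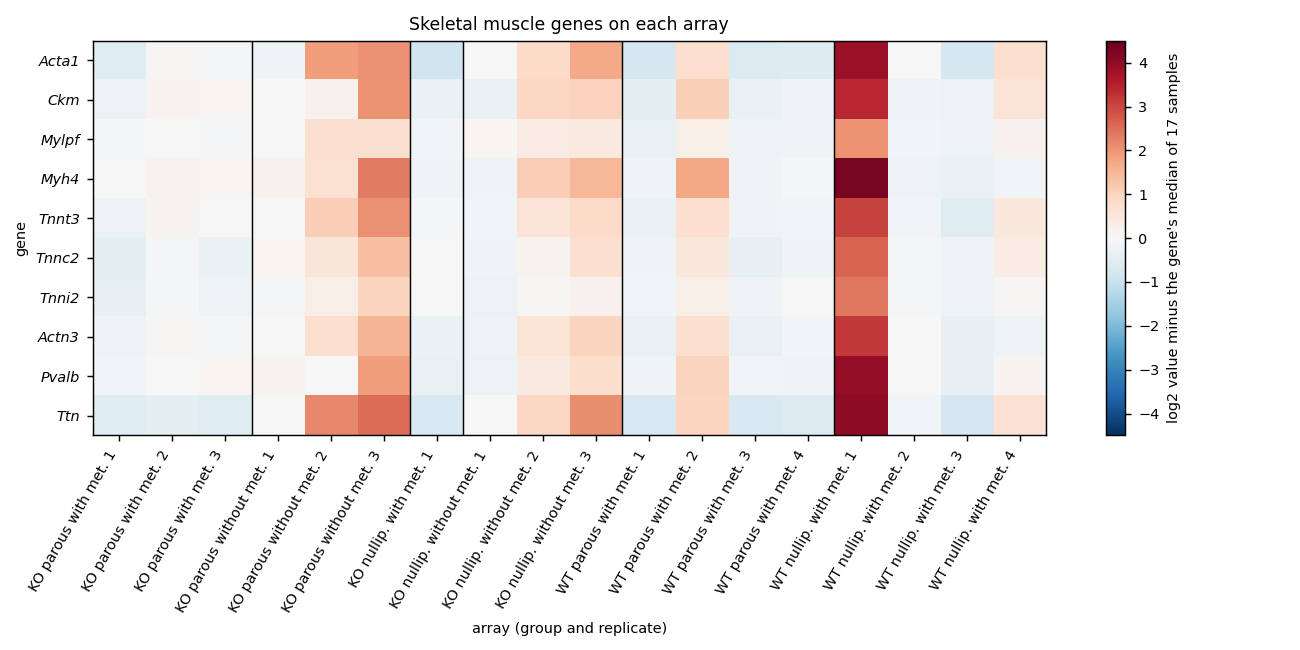
Heat map of the 10 muscle genes (rows) on the 18 arrays (columns, by group and replicate), coloured by the log2 value minus the gene's median over the 17 samples. Replicate 1 of the WT nulliparous mice is highest for all 10 genes, with a median difference of 3.29.

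Ttn and Acta1 had the widest spans of the set. Acta1 encodes skeletal alpha-actin, the main protein of the thin filament. In the KO mice, Acta1 read 8.43, 9.03 and 8.94 in the parous tumours with metastasis, 8.77, 10.85 and 11.04 in the parous tumours without metastasis, 8.06 in the nulliparous tumour with metastasis, and 8.97, 9.83 and 10.67 in the nulliparous tumours without metastasis. In the WT mice it read 8.21, 9.74, 8.35 and 8.39 in the parous tumours and 12.84, 8.94, 8.18 and 9.73 in the nulliparous ones. High and low tumours stood side by side in the same group, and the highest and the lowest WT nulliparous tumours differed by more than any pair of group means did.

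Ttn encodes titin, the giant elastic protein that spans from the Z disc to the M line. In the KO mice, Ttn read 6.65, 6.77 and 6.64 in the parous tumours with metastasis, 7.20, 9.34 and 9.72 in those without, 6.51 in the nulliparous tumour with metastasis, and 7.22, 8.12 and 9.29 in those without. In the WT mice it read 6.49, 8.17, 6.52 and 6.59 in the parous tumours and 11.23, 7.08, 6.43 and 7.86 in the nulliparous ones. All 3 KO parous tumours without metastasis read above all those with metastasis. The WT groups, which differ in parity and all had metastasis, overlapped. Actn3, the actinin that anchors thin filaments at the Z disc of fast fibres, spanned 3.56, from 7.08 to 10.65. Its 3 highest readings were 10.65 in the WT nulliparous replicate 1, 8.99 in the KO parous replicate 3 without metastasis and 8.47 in the KO nulliparous replicate 3 without metastasis.

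Of the myosin genes, Myh4 encodes the heavy chain of the fastest fibres, type IIb. In the KO mice, Myh4 read 6.72, 6.89 and 6.82 in the parous tumours with metastasis, 6.93, 7.42 and 9.07 in those without, 6.53 in the nulliparous tumour with metastasis, and 6.54, 7.82 and 8.21 in those without. In the WT mice it read 6.53, 8.48, 6.58 and 6.67 in the parous tumours and 11.01, 6.50, 6.43 and 6.61 in the nulliparous ones. In each WT group 1 tumour stood alone and the other 3 lay close together. Mylpf encodes the regulatory light chain of fast myosin. Its rank on an array was never above the 50.7 percentile, and it read 8.16 in the WT nulliparous replicate 1 against 5.83 to 6.87 elsewhere.

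The fast troponins make the thin filament answer to calcium. Tnnt3, the subunit that ties troponin to tropomyosin, read 11.43 in the WT nulliparous replicate 1, 10.44 in the KO parous replicate 3 without metastasis and 9.51 in replicate 2 of the same group, against a lowest reading of 7.86. Tnni2, the inhibitory subunit, spanned 2.74, from 7.97 to 10.71. Tnnc2, the subunit that binds calcium, spanned 3.07, from 7.14 to 10.21. The same tumour gave the highest reading of all 3 subunits, and the KO parous replicate 3 without metastasis gave the next highest.

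Ckm, the muscle creatine kinase that regenerates ATP from phosphocreatine, read 7.97, 8.39 and 8.32 in the KO parous tumours with metastasis, 8.24, 8.41 and 10.27 in those without, 7.95 in the KO nulliparous tumour with metastasis, and 7.94, 9.16 and 9.28 in those without. In the WT mice Ckm read 7.80, 9.32, 7.89 and 8.04 in the parous tumours and 11.64, 8.09, 7.96 and 8.81 in the nulliparous ones. The WT parous and nulliparous tumours overlapped, and so did the KO parous and nulliparous tumours without metastasis. Pvalb, the calcium buffer that speeds relaxation of fast fibres, read 6.70, 6.83 and 6.92 in the KO parous tumours with metastasis, 7.00, 6.81 and 8.71 in those without, 6.49 in the KO nulliparous tumour with metastasis, and 6.59, 7.27 and 7.64 in those without. In the WT mice Pvalb read 6.64, 7.85, 6.72 and 6.69 in the parous tumours and 10.79, 6.84, 6.49 and 6.97 in the nulliparous ones. As with Myh4, each WT group held 1 tumour above the others.

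In 6 tumours at least 1 of the 10 genes stood 2-fold or more above its median over the 17 samples. The WT nulliparous replicate 1 had 10 of the 10 muscle genes past that fold, against 1.95% of all genes. The KO parous replicate 3 without metastasis had 8 of 10, against 0.502% of all genes, with a median difference of 1.95. The KO nulliparous replicate 3 without metastasis had 5 of 10, against 0.732%. Replicate 2 of the KO parous mice without metastasis had 3 of 10, against 2.76%, and replicate 2 of the WT parous mice had 3 of 10, against 0.527%. Replicate 2 of the KO nulliparous mice without metastasis had 1 of 10, against 0.441%. In the other 11 samples 0 of the 10 passed. The shares of all genes past the fold there were 0.777% and 0.762% in the KO parous tumours with metastasis, 0.366% in replicate 1 of those without, 0.858% in the KO nulliparous tumour with metastasis and 0.667% in replicate 1 of those without. They were 0.326%, 0.517% and 0.727% in replicates 1, 3 and 4 of the WT parous tumours and 1.14%, 1.14% and 0.948% in replicates 2, 3 and 4 of the WT nulliparous ones. The 6 tumours with at least 1 gene past the fold came from 4 of the 6 groups, of both genotypes and of both parities. None of the KO tumours with metastasis was among them. The fold is a cutoff and does not mark a gap. The mean of the 10 genes was 8.19 in the KO nulliparous replicate 2 without metastasis and 7.87 in the WT nulliparous replicate 4, where 0 passed. Acta1 read 9.73 in that WT nulliparous tumour and 9.74 in the WT parous replicate 2.

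As group summaries, the mean of the 10 genes was 7.42 ± 0.16 (SD, n = 2) in KO parous mice with metastasis and 8.46 ± 0.86 (SD, n = 3) in KO parous mice without. It was 7.30 in the KO nulliparous mouse with metastasis (n = 1) and 8.09 ± 0.59 (SD, n = 3) in those without. In the WT mice it was 7.57 ± 0.56 (SD, n = 4) in the parous and 8.36 ± 1.70 (SD, n = 4) in the nulliparous tumours. Ordered by mean, the groups ran from the KO nulliparous tumour with metastasis to the KO parous tumours without metastasis, and no neighbours in that order differed by more than their spread. Bulk tissue does not show which cells made this RNA, and fewer muscle fibres and less RNA per fibre cannot be told apart.

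**Figure D2:**
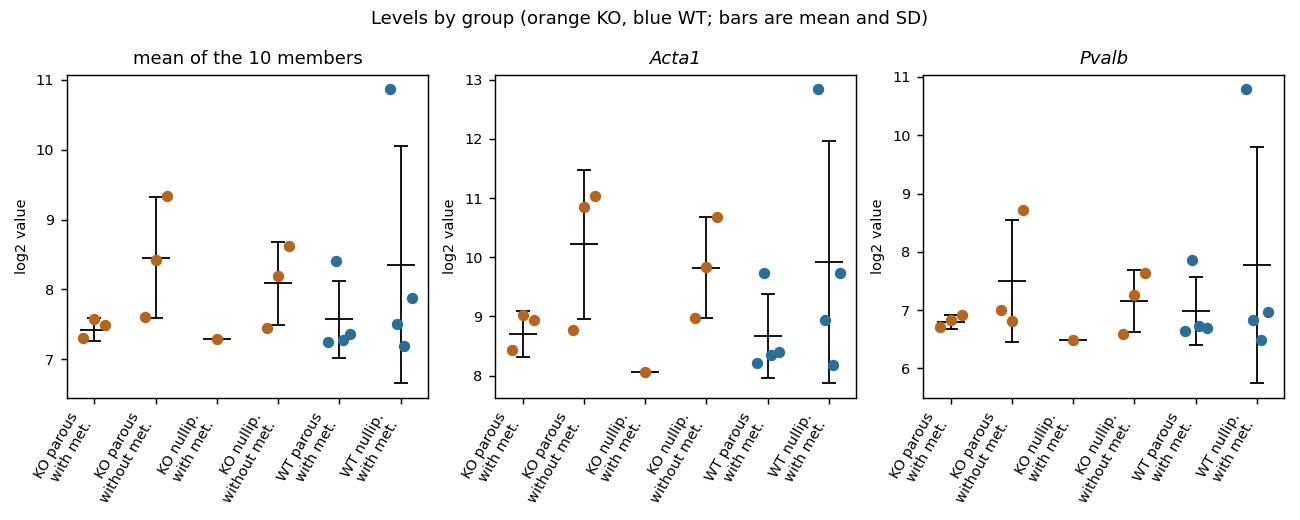
Log2 values of the mean of the 10 muscle genes, of Acta1 and of Pvalb in the 6 groups, 1 point per array (orange KO, blue WT), with the group mean and SD as black bars, the near-identical pair counted once. The WT nulliparous group has the widest spread, with an SD of 1.70 for the mean of the 10 genes.

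The effect of parity in WT mice was asked with all mice carrying metastasis. All 10 genes read lower on average in parous than in nulliparous tumours, by a median of 0.70 (log2 difference −0.70), and 0 of the 10 passed the test. By limma with Benjamini-Hochberg adjustment over all 19938 genes, 2.4% of all genes passed an adjusted p of 0.05 in this comparison. At an unadjusted p under 0.05 the count was 0 of 10, against 16.2% of all genes. Acta1 differed by −1.25 (SE 0.85, limma adjusted p = 0.527, n = 4 and 4), and Ttn by −1.21 (SE 0.91, limma adjusted p = 0.578). Both genes overlapped between the groups, as did the other 8 members, where 12.6% of all genes did not overlap. The direction rested on 1 tumour: without the WT nulliparous replicate 1 the median was 0.03, with 5 genes above 0 and 5 below. Myh4 was then 0.55 and Acta1 −0.27. Markers of other cells moved in the same comparison, and their part in the result was not tested. Of 15 adipocyte genes 14 read lower in parous tumours, with a median of −0.48, and of 9 endothelial genes 9 did, with a median of −0.25. Without the WT nulliparous replicate 1 these medians were −0.16 and −0.16. Of the adipocyte genes 1 passed the test, Lipe, the hormone-sensitive lipase, at −0.70 (SE 0.14, limma adjusted p = 0.0274). Its adjusted p was between 0.0203 and 0.0910 with 1 WT tumour left out, and it missed the threshold without parous replicate 1, 3 or 4 or nulliparous replicate 1 or 4.

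The same question in KO mice without metastasis gave the opposite sign. All 10 genes read higher in the parous group, by a median of 0.37, from 0.17 for Mylpf to 0.60 for Tnnt3. The SE was 0.75 for Tnnt3, and 0 of the 10 passed the test by limma (adjusted p = 1.00 for each, n = 3 and 3), where 0% of all genes passed. At an unadjusted p under 0.05 the share was 3.29% of all genes and 0 of the 10. None of the 10 was without overlap, against 6.04% of all genes. Without replicate 3 of the parous group the median was 0.02, with 5 genes above 0 and 5 below. The difference between the parity contrasts of the KO and WT mice had a median of 1.09 over the 10 genes, and 0 passed the test of that difference by limma, where 0% of all genes passed. An unadjusted p under 0.05 was seen for 9.64% of all genes and 0 of the 10. The smallest adjusted p among the 10 was that of Tnnc2, 0.664. Without the WT nulliparous replicate 1 that median was 0.29.

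Metastasis was compared within KO parous mice. All 10 genes read lower in the tumours of mice with metastasis, by a median of 0.92 (log2 difference −0.92). The 2 samples with metastasis lay below all 3 without it for 6 of the 10 genes (Ttn, Myh4, Mylpf, Tnnc2, Tnni2 and Actn3), where 14.4% of all genes did not overlap. For Actn3 this held only with the near-identical pair averaged. The pair's mean was 7.46 against 7.47 in replicate 1 without metastasis, while replicate 2 of the pair read 7.51. For Mylpf the gap was also small, 6.11 against 6.16. The 10 genes move together across tumours, so these 6 are not 6 separate results. Ttn differed by −2.07 (SE 1.17, limma adjusted p = 0.967, n = 2 and 3), and Acta1 by −1.51 (SE 1.10, limma adjusted p = 0.967). None of the 10 passed the test by limma, where 0% of all genes passed. The unadjusted p was under 0.05 for 4.04% of all genes and for 0 of the 10. Without replicate 3 of the group without metastasis the median was −0.45. In the same comparison 9 of 9 endothelial genes read lower with metastasis, with a median of −0.39 and 3 of 9 without overlap. So did 9 of 10 smooth muscle and myoepithelial genes, with a median of −0.29. Without replicate 2 of the group without metastasis those medians were −0.064 and −0.011. The part of these cells in the muscle result was not tested.

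Genotype was compared in parous mice with metastasis and, over all samples, in a fit that also held parity and metastasis. In the parous mice, 2 genes read higher in KO and 8 lower, with a median of −0.17. By limma 0 of the 10 passed, against 0% of all genes. For 5.73% of all genes, and 0 of the 10, the unadjusted p was under 0.05. None of the 10 was without overlap, against 17.9% of all genes. Without the WT parous replicate 2 the median was 0.15. Over all samples the 10 genes read lower in KO by a median of 0.51 (log2 difference −0.51), with Ttn at −0.86 (SE 0.87, limma adjusted p = 0.999). Again 0 of the 10 passed by limma, against 0% of all genes. Of all genes 4.44%, and of the set 0, had an unadjusted p under 0.05. None was without overlap between the genotypes, against 0.0201% of all genes. Without the WT nulliparous replicate 1 this median was −0.17. Since all WT mice had metastasis, genotype and metastasis status are partly tied in this design.

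**Figure D3:**
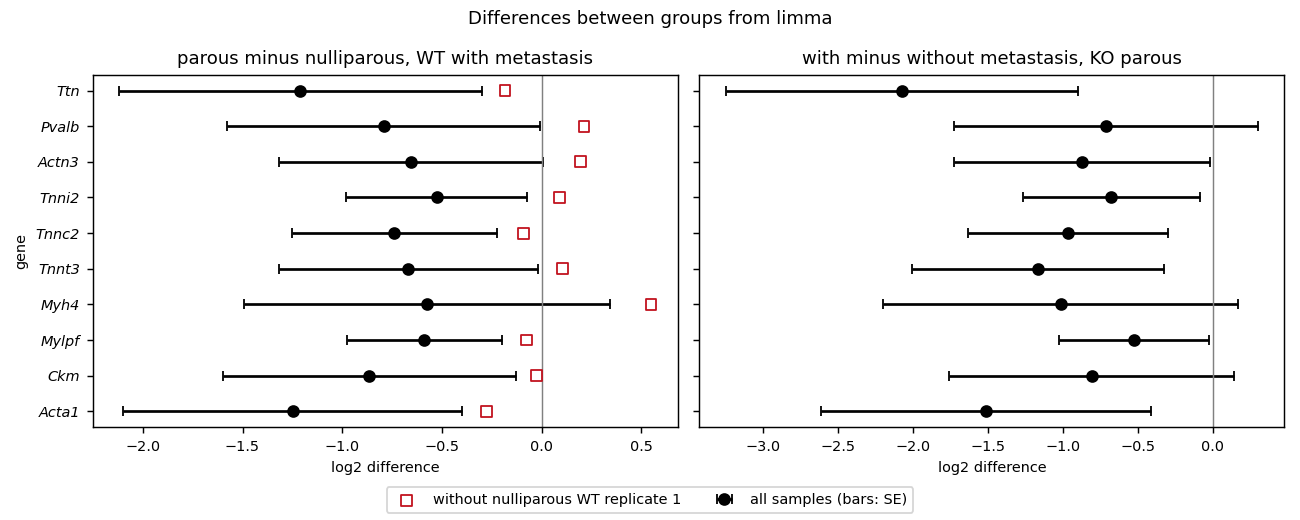
Log2 difference of each of the 10 muscle genes with bars of 1 SE from limma, for WT parity (left) and for metastasis in KO parous mice (right); open squares leave out the WT nulliparous replicate 1. Without that tumour 5 of the 10 genes lie above 0 on the left, and 0 of the 10 passed the test in either panel.

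Sarcomere genes outside the set of 10 stood at least 2-fold above their median in 5 of the 6 tumours that had a gene of the set past that fold. In the WT nulliparous replicate 1, 19 of 24 other sarcomere genes stood at least 2-fold above their median, against 1.95% of all genes. The count was 13 of 24 in the KO parous replicate 3 and 8 in the KO parous replicate 2 without metastasis, and 7 and 4 in replicates 3 and 2 of the KO nulliparous mice without metastasis. The shares of all genes there were 0.502%, 2.76%, 0.732% and 0.441%, in that order. In the WT parous replicate 2, where 3 of the 10 muscle genes were past that fold, the count was 0 of 24, against 0.527% of all genes. Even so, the mean of the 24 genes was 7.39 there, against 6.86 to 6.92 in the other WT parous tumours. Of 15 genes of calcium handling and excitation 1 was past that fold there, Atp2a1, at 9.38 against a median of 7.77. In the WT nulliparous replicate 1 Myl1, the alkali light chain of fast myosin, read 12.29, Neb, the nebulin ruler of the thin filament, read 11.55, and Xirp2, an actin-binding protein, read 10.86. Their medians over the samples were 8.24, 7.30 and 6.12. Of 12 slow fibre genes 5 were past that fold in that tumour, among them Mybpc1, the slow myosin-binding protein C, at 9.13 against a median of 6.90. Myoz2, a Z disc protein of slow fibres, read 7.64, and Csrp3, a LIM protein of striated muscle, read 9.27.

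Genes that move calcium and fuel contraction were also high in that tumour. Of 15 genes of calcium handling and excitation, 6 were past 2-fold in that tumour, where 1.95% of all genes were. Atp2a1, the pump that returns calcium to the reticulum of fast fibres, read 11.99 against a median of 7.77, Casq1, which stores calcium there, read 8.98, and Ryr1, the release channel, read 9.31. Of 13 genes of muscle energy metabolism, 5 were past that fold, among them Pygm, the muscle glycogen phosphorylase, at 10.28 and Eno3, the muscle enolase, at 10.79. Cox7a1, a cytochrome oxidase subunit of heart and muscle, was highest in another tumour, the WT parous replicate 4, at 11.13.

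Few genes of the nerve contact and of muscle stem cells were high in that tumour. Of 9 neuromuscular junction genes 0 were past 2-fold in the WT nulliparous replicate 1, where 1.95% of all genes were. The mean of that list was highest there, at 7.39, within a range of 7.07 to 7.39 over all arrays. Of 10 satellite cell and myogenic genes 1 was, Myf6, a myogenic transcription factor of mature fibres, at 7.49 against a median of 6.25. The mean of the satellite cell and myogenic list lay between 6.73 and 7.05, and it too was highest in the WT nulliparous replicate 1. Chrnb1, a subunit of the acetylcholine receptor, had the widest span of the junction genes. Its highest reading was 10.15 in the KO parous replicate 3 with metastasis, 1 array of the near-identical pair. There 0 of the 10 muscle genes stood 2-fold above their median. Chrnb1 was nearly as high, at 10.12 and 9.95, in replicates 2 and 3 of the KO parous mice without metastasis, where muscle genes were high.

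The other muscle lists had no gene past the test in any of the 6 comparisons. For WT parity, 0 of 24 other sarcomere genes passed the test with a median of −0.50, 0 of 12 slow fibre genes with −0.24, 0 of 15 calcium genes with −0.15 and 0 of 13 energy genes with −0.20. The junction and satellite cell lists had medians of 0.0057 and 0.0067 there, with 5 of 9 and 6 of 10 genes above 0. In KO parity, 3 of 12 slow fibre genes had an unadjusted p under 0.05 by limma, against 3.29% of all genes, and 3 did not overlap, against 6.04%. In KO against WT parous mice 5 of 9 junction genes did not overlap, where 17.9% of all genes did not. For metastasis in KO parous mice all 24 other sarcomere genes read lower with metastasis, with a median of −0.81, and 0 passed. Of the 24, 18 did not overlap, against 14.4% of all genes. Other muscle lists also had genes without overlap there: 7 of 10 satellite cell and myogenic genes (median −0.20) and 6 of 9 junction genes (−0.16). So did 9 of 15 calcium genes (−0.24), 5 of 12 slow fibre genes (−0.38) and 3 of 13 energy genes (−0.19). All these genes share the same few samples, so the counts are not separate results. The median of all genes lay between −0.03 and 0.02 in the 6 comparisons.

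The pattern over the 17 samples was shared closely within the set. Pearson r between members lay between 0.86 and 0.99 over the 45 pairs, with a median of 0.95. Without the 2 samples farthest from the median, which were the WT nulliparous replicate 1 and the KO parous replicate 3 without metastasis, r lay between 0.59 and 0.98 over 15 samples, with a median of 0.82. Acta1 and Ttn were the closest pair both times, at 0.99 and 0.98. Mylpf and Pvalb were the least alike of the 45 pairs once those samples were left out, at 0.59. All values come from the same arrays, so they share array, dissection and normalization.

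Among genes outside the set, those most like its mean were ranked by Pearson r over the 17 samples, as a description with no test, since the ranking chose them. Ryr1 was first at 0.98 with Spearman rho 0.95, followed by Atp2a1 (r = 0.98, rho = 0.96), Pgam2 (r = 0.97, rho = 0.84), Myot (r = 0.97, rho = 0.96) and Mybpc2 (r = 0.97, rho = 0.92). Pygm, Neb, Nrap, Fhl1 and Myom2 made up the rest of the first 10, with r from 0.97 to 0.96. Without the 2 farthest samples r for these 10 lay between 0.82 and 0.96. By Spearman rho, 7 of the first 10 were the same, and Myl1, Casq1 and Ankrd23 took the other places. Pgam2 is the muscle phosphoglycerate mutase, Myot and Mybpc2 are proteins of the Z disc and of the fast thick filament, and Ankrd23 is a titin-associated ankyrin repeat protein. In all, 49 genes outside the set had r over 0.9, and 30 of them were in the muscle and tissue lists.

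Replicate 2 of the KO parous mice without metastasis had a muscle profile of its own, best seen against replicate 3 of the same group. Acta1 read 10.85 and 11.04 in replicates 2 and 3, and Ttn 9.34 and 9.72. By contrast, Pvalb read 6.81 and 8.71, Ckm 8.41 and 10.27, and Myh4 7.42 and 9.07. Thus the 2 tumours were close in the actin and titin of the sarcomere and differed by more than 2-fold in Myh4, Ckm and Pvalb. Between these lay Tnnt3, Tnnc2, Actn3 and Tnni2, with replicate 2 minus replicate 3 at −0.94, −0.83, −0.78 and −0.70. The difference was therefore graded over the set, with a median of −0.81 for the 10 genes. Other fast myosin genes were closer, with replicate 2 minus replicate 3 at 0.0045 for Mylpf, 0.26 for Myh1, −0.36 for Myl1 and −0.66 for Myh2, the last 3 named after their values were seen. Of the 10 genes, 0 were at least 2-fold higher in replicate 2, where 3.88% of all genes were, and 3 were at least 2-fold lower, where 2.05% of all genes were. Atp2a1 followed Pvalb, at 8.23 against 10.49. With 1 array each, this difference has no replicate check and no test.

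Of all 18 arrays, replicate 2 held the highest readings of 5 genes that heart or developing skeletal muscle use. Tnnt2, cardiac troponin T, read 10.90 there against at most 9.17 elsewhere. Myl4, the atrial and embryonic myosin light chain, read 10.52 against at most 9.00, and Actc1, cardiac alpha-actin, 9.62 against at most 8.24. Myh3, the embryonic myosin heavy chain, read 6.88 against at most 5.90, and Myh8, the perinatal one, 7.12 against at most 6.65. Not every heart gene moved this way, since Tnni3, cardiac troponin I, read 7.92 in replicate 2 and 9.55 in replicate 3. Of the 13 heart genes 3 were at least 2-fold higher in replicate 2 than in replicate 3 and 1 was lower, with a median difference of −0.039. Of the 10 satellite cell and myogenic genes, the list of Myh3 and Myh8, 1 was at least 2-fold higher and 0 were lower, with a median of 0.013. Of all genes 3.88% were higher and 2.05% lower by that fold. In the WT nulliparous replicate 1, by contrast, 0 of the 13 heart genes stood 2-fold above their median. Tnni3 was named after its value was seen.

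**Figure D4:**
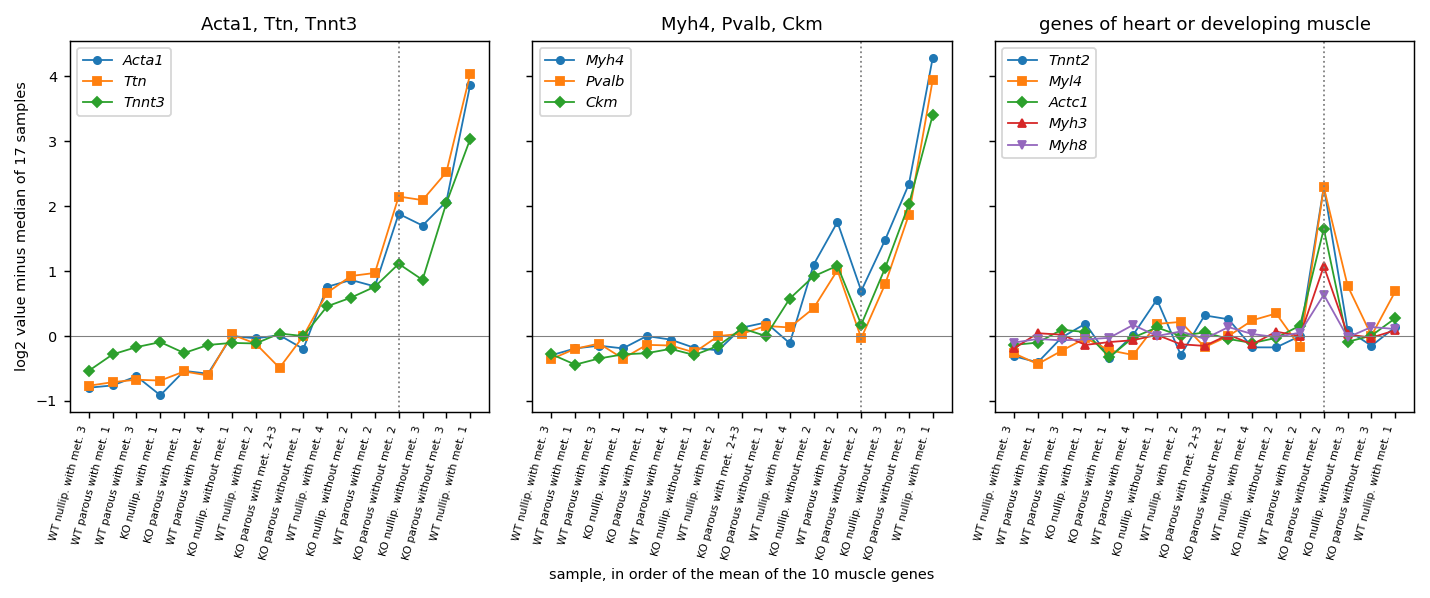
Log2 value minus the median over the 17 samples for Acta1, Ttn and Tnnt3 (left), Myh4, Pvalb and Ckm (middle) and genes of heart or developing muscle (right), with the samples ordered by the mean of the 10 muscle genes. At the dotted line, replicate 2 of the KO parous mice without metastasis, the left and right panels are high. In the middle panel Pvalb and Ckm are near 0 and Myh4 is at 0.70. The right panel shows only genes that were highest in this tumour, not their whole lists, and leaves out Tnni3.

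Genes of other tissues were high in some of the tumours with high muscle genes, and their part in the result was not tested. In the WT nulliparous replicate 1, 10 of 15 adipocyte genes stood at least 2-fold above their median, where 1.95% of all genes did. The mean of the list was 9.20 there, against 7.59 to 8.35 on the other arrays. Car3, a carbonic anhydrase of fat that slow muscle also makes, read 12.76 there, Thrsp, a regulator of lipid synthesis, 10.50, and Lpl, a lipase of fat and muscle, 10.32. In the KO parous replicate 3 without metastasis, second highest for the muscle set, 1 of the 15 adipocyte genes was past that fold. Of all genes 0.502% were.

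In replicate 2 of the KO parous mice without metastasis, 4 of 9 endothelial genes and 4 of 10 smooth muscle and myoepithelial genes stood at least 2-fold above their median. Of all genes 2.76% did. The endothelial mean was 9.61 there, above 8.41 to 9.45 on the other arrays. Tek, Emcn and Cdh5, which mark blood vessel lining, read 8.18, 10.67 and 11.13. Acta2 and Actg2, the smooth muscle actins, read 11.93 and 8.84. Des, the desmin of all muscle kinds, read 10.83 there and 11.43 in the WT nulliparous replicate 1. Krt19, a keratin of simple epithelia, was also highest in this tumour, at 9.69.

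Lists of other tissues near the gland had narrow ranges. The mean of 7 skin genes lay between 6.55 and 7.02, that of 5 brown fat genes between 6.21 and 6.65, and that of 5 Schwann cell genes between 9.05 and 9.84. Within these ranges, the WT parity groups did not overlap for 2 lists. The Schwann cell mean was 9.41 to 9.84 in parous and 9.05 to 9.36 in nulliparous tumours. For skin it was 6.641 to 6.731 and 6.551 to 6.635. Of single genes, 2 of 5 Schwann cell and 1 of 7 skin genes did not overlap, against 12.6% of all genes. None of either list passed the test by limma, where 2.4% of all genes did. The luminal epithelial genes had 0 of 10 past 2-fold in the WT nulliparous replicate 1 and 1 of 10 in replicate 2 of the KO parous mice without metastasis. The shares of all genes there were 1.95% and 2.76%. The heart genes had a mean between 7.32 and 7.84.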

How the data were processed

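RNA from 18 tumours was measured on single-colour arrays, 1 array per tumour by the labels. The authors deposited log2 values of 35556 probe sets, made with RMA and oligo per the submitters' processing notes, whose versions are not given in the sources used here. Dim genes are compressed by RMA, which also removes shifts shared by all genes, so folds of dim genes may be understated. Arrays have no read depth, and their number sets the precision. Of the probe sets, 21789 had 1 gene in the platform annotation, 1621 several and 12146 none, and only the first kind was used. The brightest was kept per gene, which gave 19938 genes, of which 19855 matched RefSeq (GRCm38.p6) by Entrez identifier.

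The near-identical pair was averaged, and limma 3.58.1 in R 4.3.3 was fitted to all genes with 6 group means, or with genotype, parity and metastasis as additive terms, with Benjamini-Hochberg adjustment and a threshold of 0.05. The fit was tested on simulated data. The 10 genes and the 14 other lists (167 of 176 list entries were matched) were chosen with earlier results of these data known. Named genes were the 10 members, the 3 widest-spanning genes of each list and the 10 most alike by each correlation. Alternatives were another handling of the pair, probe sets, dim genes, normalization, spread, weights and eBayes options, the replicate number as a block, and each sample left out. Leaving out samples for the other lists and for Lipe was chosen after seeing the data.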

Additional observations from a re-analysis of the deposited data

Results flagged for a closer look

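In groups of 4 samples, the gap between the farthest sample and the next was set against the range of the group, for 25 measures in 2 groups. This gave 14 of 50 that stood out, where chance marks about 1 in 20 groups. The 25 measures move together, so the 14 are not separate results.

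In the WT parous mice, replicate 2 stood above the other 3 for 6 of the 10 muscle genes. Acta1 read 9.74 there against 8.21 to 8.39, Ckm 9.32 against 7.80 to 8.04, and Myh4 8.48 against 6.53 to 6.67. Tnnt3 read 9.16, Pvalb 7.85 and Ttn 8.17. The mean of the 10 genes was 8.40 against 7.24 to 7.37, and the mean of the other sarcomere genes was 7.39 against 6.86 to 6.92. In the WT nulliparous mice, replicate 1 stood above the other 3 for 4 muscle genes by this measure: Myh4 at 11.01, Tnni2 at 10.71, Actn3 at 10.65 and Pvalb at 10.79. The other 6 muscle genes were also highest there but did not pass this measure.

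Replicate 1 of the WT parous mice stood below the others for the mean of the heart genes, at 7.32 against 7.52 to 7.53, and for the mean of the luminal epithelial genes, at 11.18 against 11.34 to 11.38.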

How the results depend on the processing

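Under each alternative and in each of the 6 comparisons, 0 of the 10 genes passed the test, and the smallest limma adjusted p of a member was 0.245. With the replicate number as a block, the median differences were −0.70 for WT parity, 0.37 for KO parity, −0.34 for KO against WT in parous mice, −0.96 for metastasis, −0.55 for the additive genotype fit and 1.09 for the difference of the parity contrasts. The labels do not say that a number is shared between groups, and only 3 of 11 same-numbered pairs had deviations correlated over 0.1 (range −0.31 to 0.43), so the numbers were not taken as pairs. With array weights, KO parity was 0.94, metastasis −1.60 and the difference of the parity contrasts 1.91.

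Leaving out 1 sample at a time moved the median of the 10 genes from −1.05 to 0.03 in WT parity, 0.02 to 0.69 in KO parity, −0.29 to 0.15 in KO against WT in parous mice, −1.25 to −0.45 in metastasis, −0.65 to −0.17 in the additive fit and 0.29 to 1.44 in the difference of the parity contrasts. In WT parity, 5 genes turned in sign without the WT nulliparous replicate 1: Myh4 to 0.55, Pvalb to 0.21, Actn3 to 0.19, Tnnt3 to 0.11 and Tnni2 to 0.090. Their left-out ranges were −1.05 to 0.55, −1.22 to 0.21, −0.99 to 0.19, −1.08 to 0.11 and −0.78 to 0.090. The number of all genes passing in WT parity, 478, was 57 to 770 with 1 sample left out, 1718 with array weights, 212 with the replicate block and 878 with the 2 groups fitted alone. With the dimmest 40% of genes left out, 7 of the 10 stayed in the fit.

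All p-values rest on 1 to 4 samples a group, and the KO nulliparous mice with metastasis were 1 sample with no spread of their own. The pooled SD of the mean of the 10 genes within groups was 1.04, above each median difference but that of the parity contrasts' difference.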
